A study of Mus musculus with 12 samples.

Results

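The 10 genes described here encode the output end of the Hippo pathway, and comprise the coactivators Yap1 and Wwtr1 (Taz), the DNA-binding factors Tead1, Tead2, Tead3 and Tead4, the angiomotin-like scaffolds Amotl1 and Amotl2, and the kinases Lats1 and Lats2. They were taken by symbol, through the probe sets that carry 1 of these symbols alone, and all 10 were found among the 19938 genes measured. Tead1 was read by 2 probe sets and each other gene by 1, which makes 11 of the 35557 probe sets of the array.

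The messenger RNA of 3 biological replicates at each of days 0, 1, 3 and 5 was hybridized to 12 arrays (Affymetrix Mouse Gene 1.0 ST), and signals are on the log2 scale. Esrrb_R is a mouse embryonic stem (ES) cell line, a rescue clone of AINV15 cells, whose own Esrrb is silenced by a short hairpin RNA and replaced by a GFP-tagged copy that the hairpin does not target and that needs doxycycline (Dox) for its expression. At days 1, 3 and 5 the cells were without Dox, and at day 0 they had 1 µg/ml. The hairpin, serum, Lif and gelatin without feeder cells were common to all 4 days, although the line is otherwise kept on irradiated embryonic fibroblasts. All arrays come from this 1 rescue clone and there are no arrays of Dox removal or culture time by themselves, so that loss of Esrrb, removal of Dox and days in culture cannot be told apart. The mean signals of Esrrb were 11.59, 9.13, 8.20 and 8.19 at these 4 days, and its arrays without Dox lay below all arrays with Dox.

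In the Hippo pathway, cell contact, polarity and tension act through the Mst kinases and their adaptors on Lats1 and Lats2, which phosphorylate Yap1 and Wwtr1 and hold them in the cytoplasm. When the kinases are inactive, Yap1 and Wwtr1 enter the nucleus and bind Tead factors, which sit on DNA, and genes such as Ccn1 and Ccn2 are transcribed. Angiomotin-like proteins hold Yap1 at junctions and activate Lats kinases, and in the mouse embryo Tead4 with Yap1 directs the outer cells to trophectoderm. Much of this control acts on phosphorylation and on the place of the proteins in the cell, which arrays do not measure.

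The Tead factors bind the core letters GGAATG, which read CATTCC on the opposite strand, and the members' own promoters were searched for them because several genes of this pathway are known to be Tead targets. Promoter windows of 300 bases (250 before and 50 after a start site; RefSeq, GRCm38.p6) were given for 8 of the 10 genes, 12 windows in all, and Tead1 and Tead4 were not among them. The core stood on either strand in 7 of these 12 windows, belonging to 5 of the 8 genes, against 14.7% of all 32851 windows, and both windows of Wwtr1 hold the same site. The sites, apart from a further Tead3 core, are given here with the core in capitals, each in the strand that reads GGAATG, to show the letters around it. Tead3, which has 3 annotated starts, is shown with the site of its farthest upstream window and with a pair of neighbouring cores of the next window. The core not printed lies in the window of this pair, within the first bases of the transcript.
Yap1 (chr9:8004720-8004749, minus strand): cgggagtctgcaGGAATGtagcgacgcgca
Wwtr1 (chr3:57576029-57576058, minus strand): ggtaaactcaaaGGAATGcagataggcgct
Amotl2 (chr9:102717727-102717756, minus strand): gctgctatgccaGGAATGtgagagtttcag
Lats2 (chr14:57746102-57746131, minus strand): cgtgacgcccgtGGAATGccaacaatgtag
Tead3 (chr17:28350970-28350999, minus strand): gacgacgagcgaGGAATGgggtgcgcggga
Tead3 (chr17:28350706-28350735, plus strand): gccggaatgtacGGAATGagcccggccgga
Tead3 (chr17:28350697-28350726, plus strand): agggggatggccGGAATGtacggaatgagc

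The Amotl2 core lay 65 bases before the start site, that of Yap1 141 bases before it, and that of Lats2 within the first bases of the transcript. The Wwtr1 core lay 136 bases before 1 annotated start and 170 bases before the other. The windows printed for the pair of Tead3 cores overlap but the cores do not, and these lay 114 and 123 bases before their start. The windows of Tead2, Amotl1 and Lats1 held no GGAATG in either direction. The only Amotl1 window stands before a start inside the gene (chr9:14615001-14615250, minus strand). This gene begins at chr9:14662974, and the promoter there was not searched. The Amotl2 window likewise lies inside its gene, which begins at chr9:102717091. A second motif, the Esrrb half-site AAGGTCA, whose opposite strand reads TGACCTT, was found in 0 of the 12 windows and in 4.72% of all windows. A match, or none, describes only the letters of these windows. The 250 bases before the starts of Amotl2, which rose late, and of Tead2, which rose early, are given in full in the strand of the gene, with the core in capitals in the reverse reading that it has there.
Amotl2 (chr9:102717554-102717803, plus strand): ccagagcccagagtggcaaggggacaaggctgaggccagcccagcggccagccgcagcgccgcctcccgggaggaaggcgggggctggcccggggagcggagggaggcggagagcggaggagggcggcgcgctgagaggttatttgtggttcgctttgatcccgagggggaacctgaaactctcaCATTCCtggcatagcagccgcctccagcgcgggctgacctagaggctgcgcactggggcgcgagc
Tead2 (chr7:45215542-45215791, plus strand): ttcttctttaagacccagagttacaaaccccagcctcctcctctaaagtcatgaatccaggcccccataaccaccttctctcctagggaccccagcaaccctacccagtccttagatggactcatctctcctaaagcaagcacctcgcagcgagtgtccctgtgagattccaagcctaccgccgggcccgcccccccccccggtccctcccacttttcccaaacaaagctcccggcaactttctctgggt

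Across the time course all 10 genes changed, as tested by the moderated F test of limma over days 1, 3 and 5 against day 0 (adjusted p between 3.44e-07 for Amotl2 and 0.00189 for Lats1), where 45.6% of all genes were called. P-values were adjusted over all 19938 genes, and a gene is called here when the adjusted p is under 0.05. The range of the day means had a median of 0.71 on the log2 scale over the 10 genes and of 0.24 over all genes. At day 1, 1 gene was higher (Tead2) and 1 lower (Wwtr1) than at day 0, where 10.9% of all genes were called, 6.45% higher and 4.48% lower, and 6 of the 10 genes had arrays that did not overlap between the days, as did 30.3% of all genes. At day 3, 5 genes were higher (Tead2, Tead3, Amotl1, Lats1 and Yap1) and 2 lower (Tead4 and Wwtr1), where 26.6% of all genes were called, 13.5% higher and 13.1% lower, and the arrays of 9 genes did not overlap (39.3% of all genes). At day 5, 9 of the 10 were higher and none lower, where 35% of all genes were called, 17.4% higher and 17.6% lower, and Tead4 alone did not pass. The arrays of 9 genes did not overlap at day 5 (42.8% of all genes). The median change of the 10 genes at day 5 was 0.58, against -0.02 over all genes.

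Between days 3 and 5, 7 of the 10 genes rose and none fell, where 25.3% of all genes were called, 13% higher and 12.2% lower, and the arrays of 8 genes did not overlap (38.9% of all genes). Their median change in this interval was 0.56, against -0.02 over all genes. Yap1, Wwtr1, Tead1, Tead4, Amotl1, Amotl2 and Lats2 made up the 7, and the call for Yap1 was lost when any of 9 single arrays was left out. Between days 1 and 3, 5 genes rose (Tead2, Tead3, Amotl1, Amotl2 and Lats1) and 2 fell (Tead4 and Lats2), where 20.8% of all genes were called, 9.2% higher and 11.6% lower, and the arrays of 8 genes did not overlap (40.4% of all genes). This count of 7 was 4 without day 1 replicate 1 and 4 without day 3 replicate 3.

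**Figure D1:**
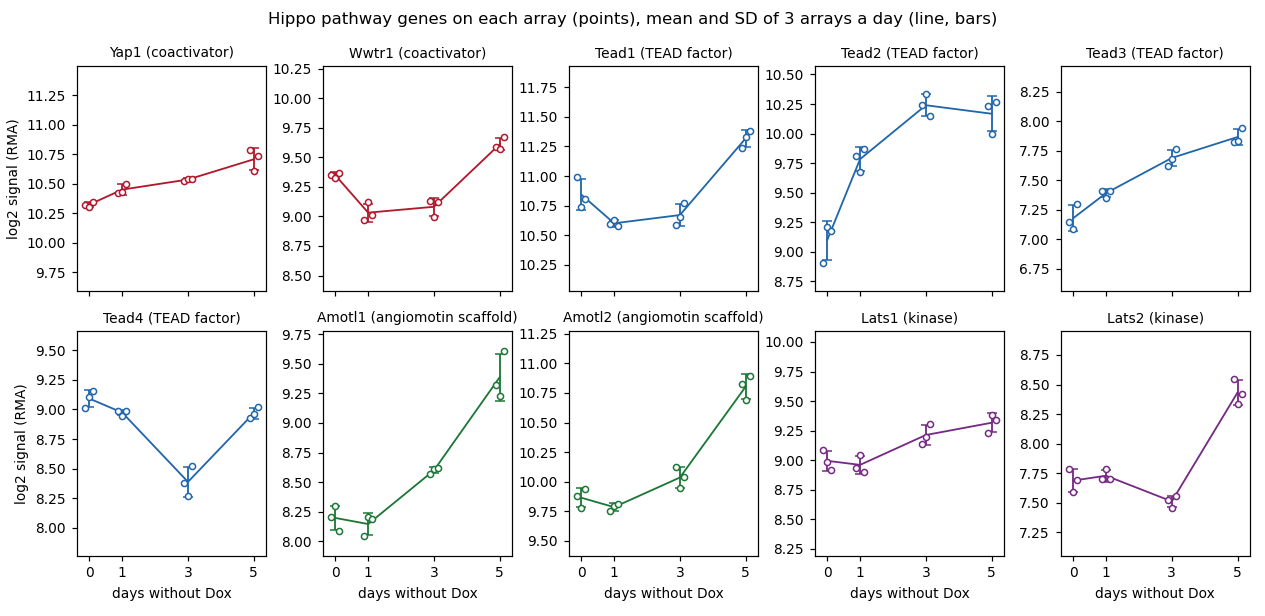
Log2 signal (vertical axis) of the 10 genes by day (horizontal axis: days 0, 1, 3 and 5), 1 panel a gene, with a point for each of the 3 arrays a day and a line through the day means with bars of 1 SD. Tead2 stands apart from day 0 at day 1 already, Tead4 dips at day 3, and Amotl1, Amotl2 and Lats2 are highest at day 5.

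The coactivators took different courses. Yap1, which binds Tead factors and carries their activation domain, had log2 signals of 10.32, 10.30 and 10.34 at day 0, 10.42, 10.43 and 10.50 at day 1, 10.52, 10.54 and 10.54 at day 3, and 10.78, 10.60 and 10.73 at day 5. The 3 arrays of each later day lay above those of the day before it, with no overlap. Its change against day 0 was 0.13 at day 1 (standard error, SE, 0.06, and adjusted p = 0.19 from limma), 0.21 at day 3 (adjusted p = 0.0131) and 0.38 at day 5 (adjusted p = 0.000129). The step of 0.17 between days 3 and 5 was close to the threshold (adjusted p = 0.0413, and between 0.0502 and 0.14 when day 0 replicate 1, day 5 replicate 1 or 3 or any 1 array of days 1 and 3 was left out), and the rise at day 3 did not pass after each array was centred on its median (adjusted p = 0.0523).

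Wwtr1, the paralog of Yap1 and a target of the same kinases, had log2 signals of 9.35, 9.32 and 9.37 at day 0, 8.97, 9.12 and 9.01 at day 1, 9.13, 8.99 and 9.12 at day 3, and 9.59, 9.57 and 9.67 at day 5. The arrays of days 1 and 3 shared 1 range below day 0, and those of day 5 lay above all others. It fell by 0.32 at day 1 (SE 0.06, adjusted p = 0.00469 from limma) and by 0.27 at day 3 (adjusted p = 0.00483), and was higher by 0.26 at day 5 (adjusted p = 0.00389). The rise between days 3 and 5 was 0.53 (adjusted p = 3.44e-05), and days 3 and 1 differed by 0.05 (adjusted p = 0.646).

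The difference between the paralogs was tested within each array, Yap1 minus Wwtr1, beside the 19938 genes in the same model. It grew by 0.44 at day 1 (SE 0.07, adjusted p = 0.000965 from limma) and by 0.48 at day 3 (adjusted p = 0.000141) against day 0, and shrank by 0.36 between days 3 and 5 (adjusted p = 0.00152). At day 5 the difference from day 0 was 0.12 and did not pass (adjusted p = 0.193). A log2 signal does not rank 1 gene against another, so that only the change of such a difference is read.

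Among the Tead factors, Tead2 rose first and Tead4 fell. Tead2, the family member known for its expression in the early mouse embryo, had log2 signals of 8.91, 9.21 and 9.18 at day 0, 9.81, 9.67 and 9.87 at day 1, 10.24, 10.33 and 10.15 at day 3, and 10.24, 9.996 and 10.27 at day 5. The arrays of days 0, 1 and 3 formed 3 steps without overlap, while days 3 and 5 overlapped. Its change was 0.69 at day 1 (SE 0.10, adjusted p = 0.000567 from limma), 1.14 at day 3 (adjusted p = 1.86e-06) and 1.07 at day 5, a 2.10-fold rise (adjusted p = 1.63e-06). The difference of -0.07 between days 5 and 3 did not pass (adjusted p = 0.652).

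Tead3, which in the mouse is known for its expression in placenta, had log2 signals of 7.15, 7.09 and 7.30 at day 0, 7.41, 7.35 and 7.41 at day 1, 7.62, 7.68 and 7.76 at day 3, and 7.83, 7.83 and 7.94 at day 5. No array of a later day reached into the range of an earlier one. The change against day 0 was 0.21 at day 1 (SE 0.07, adjusted p = 0.0569 from limma), 0.51 at day 3 (adjusted p = 7.11e-05) and 0.69 at day 5 (adjusted p = 2.76e-06). Without day 0 replicate 3 the change at day 1 passed (adjusted p = 0.019), and so did that of 0.18 between days 3 and 5 (adjusted p = 0.0669 with all arrays and 0.0383 without it).

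Tead4, the factor needed for trophectoderm in the mouse blastocyst, had log2 signals of 9.02, 9.10 and 9.16 at day 0, 8.98, 8.95 and 8.99 at day 1, 8.37, 8.27 and 8.52 at day 3, and 8.93, 8.96 and 9.02 at day 5. The 3 arrays of day 3 were the lowest by a wide gap, and those of day 5 overlapped both day 1 and day 0. It fell by 0.71 at day 3, or 1.63-fold (SE 0.07, adjusted p = 5.89e-06 from limma), and rose by 0.58 between days 3 and 5 (adjusted p = 4.11e-05). The changes of -0.12 at day 1 and -0.12 at day 5 against day 0 did not pass (adjusted p = 0.327 and 0.19).

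Tead1, the most widely expressed member of the family in adult mouse tissues, had mean log2 signals over its 2 probe sets of 10.99, 10.74 and 10.80 at day 0, 10.60, 10.63 and 10.57 at day 1, 10.59, 10.66 and 10.77 at day 3, and 11.24, 11.33 and 11.38 at day 5. Day 5 lay above all other arrays, day 1 below day 0, and day 3 overlapped both of the earlier days. The change was 0.48 at day 5 (SE 0.07, adjusted p = 0.000195 from limma), and 0.49 and 0.47 for the 2 probe sets taken singly. The changes of -0.24 at day 1 (adjusted p = 0.0515) and -0.17 at day 3 (adjusted p = 0.106) did not pass, although that at day 1 did without day 0 replicate 2 (adjusted p = 0.0376).

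The 4 factors differed from one another in their change. At day 5 against day 0, Tead2 minus Tead4 grew by 1.19 (SE 0.11, adjusted p = 1.45e-06 from limma) and Tead3 minus Tead4 by 0.81 (adjusted p = 4.39e-07), and at day 3 by 1.85 and 1.22. Tead1 minus Tead4 grew by 0.60 (adjusted p = 0.000103) and Tead2 minus Tead3 by 0.38 (adjusted p = 0.00845) at day 5. Tead1 minus Tead2 changed by -0.93, -1.32 and -0.59 at days 1, 3 and 5 against day 0 (adjusted p = 0.000871, 1.24e-05 and 0.00406). The change of -0.21 in Tead1 minus Tead3 at day 5 passed narrowly (adjusted p = 0.044) and was lost without any of 11 of the 12 arrays, with a value of -0.12 without day 0 replicate 1.

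**Figure D2:**
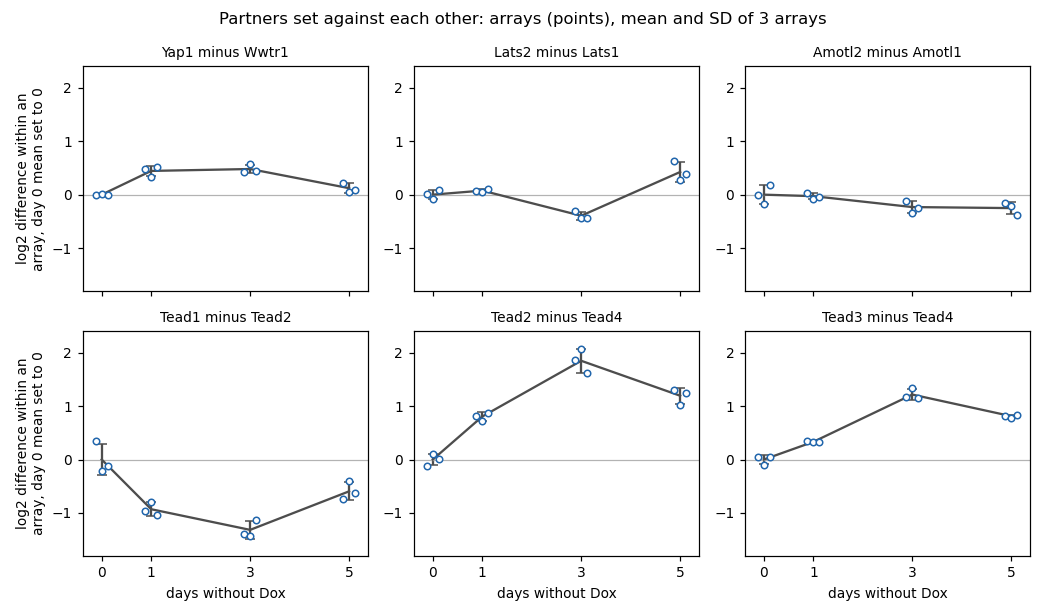
Within-array log2 difference between paralogs (vertical axis, with the day 0 mean set to 0) by days without Dox (horizontal axis) for 6 of the 9 pairs, 1 panel a pair, with a point for each array and a line through the means with bars of 1 SD over 3 arrays. Tead2 minus Tead4 and Tead3 minus Tead4 peak at day 3, with 1.85 and 1.22, and Lats2 minus Lats1 lies below 0 at day 3 (-0.39) and above it at day 5 (0.42).

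The angiomotin-like scaffolds rose late. Amotl1, a junction protein that binds Yap1, had log2 signals of 8.21, 8.29 and 8.09 at day 0, 8.04, 8.20 and 8.19 at day 1, 8.57, 8.61 and 8.62 at day 3, and 9.32, 9.23 and 9.61 at day 5. Days 0 and 1 overlapped, day 3 stood above both, and day 5 above day 3. The change was -0.05 at day 1 (SE 0.09, adjusted p = 0.8 from limma), 0.40 at day 3 (adjusted p = 0.00491) and 1.19 at day 5, a 2.28-fold rise (adjusted p = 3.82e-07), of which 0.79 came between days 3 and 5 (adjusted p = 3.85e-05).

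Amotl2, which activates Lats kinases and is itself a known target of Yap1, had log2 signals of 9.88, 9.78 and 9.94 at day 0, 9.75, 9.79 and 9.81 at day 1, 10.12, 9.94 and 10.04 at day 3, and 10.82, 10.69 and 10.90 at day 5. The day 5 arrays lay well above those of the other days, day 3 lay just above days 0 and 1, and these overlapped. The change was -0.08 at day 1 (SE 0.07, adjusted p = 0.549 from limma), 0.17 at day 3 (adjusted p = 0.0918) and 0.94 at day 5, a 1.92-fold rise (adjusted p = 2.85e-07). The rise of 0.25 between days 1 and 3 passed (adjusted p = 0.0209) but was lost without day 1 replicate 1 or 2 or day 3 replicate 1 or 3 (adjusted p between 0.0548 and 0.0844). The change of Amotl2 minus Amotl1 at day 5 was -0.25 (SE 0.09, adjusted p = 0.0524) and did not pass, and leaving out 1 array moved it to values between -0.34 without day 0 replicate 2 (adjusted p = 0.0112) and -0.16 without day 0 replicate 3 (adjusted p = 0.207).

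The kinases that restrain Yap1 and Wwtr1 rose unequally. Lats2, which is also a known Yap1 target, had log2 signals of 7.78, 7.59 and 7.69 at day 0, 7.70, 7.78 and 7.70 at day 1, 7.52, 7.46 and 7.55 at day 3, and 8.54, 8.34 and 8.42 at day 5. The day 3 arrays were the lowest and the day 5 arrays the highest, with no overlap with the other days. Its change was 0.04 at day 1 (SE 0.07, adjusted p = 0.783 from limma), -0.18 at day 3 (adjusted p = 0.0778, and 0.041 without day 0 replicate 2) and 0.75 at day 5, a 1.68-fold rise (adjusted p = 1.91e-06). The rise between days 3 and 5 was 0.92 (adjusted p = 1.18e-06), and the fall of 0.22 between days 1 and 3 (adjusted p = 0.0386) was lost without any 1 array of day 1 or day 3 (adjusted p between 0.0637 and 0.135).

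Lats1, the other kinase of the pair, had log2 signals of 9.09, 8.98 and 8.92 at day 0, 8.93, 9.04 and 8.90 at day 1, 9.14, 9.20 and 9.30 at day 3, and 9.23, 9.38 and 9.34 at day 5. Days 0 and 1 overlapped, and days 3 and 5 overlapped at a higher level. It was higher by 0.32 at day 5 (SE 0.07, adjusted p = 0.00242 from limma), and by 0.22 at day 3 (adjusted p = 0.0326), which was lost without day 0 replicate 2 or 3 or day 3 replicate 2 or 3 (adjusted p between 0.0666 and 0.135). The rise of 0.25 between days 1 and 3 (adjusted p = 0.0194) was likewise lost without day 1 replicate 1 or 3 or day 3 replicate 3 (adjusted p between 0.0679 and 0.0905). Lats2 minus Lats1 changed by -0.39 at day 3 (SE 0.08, adjusted p = 0.00305) and by 0.42 at day 5 (adjusted p = 0.00122) against day 0, with a rise of 0.82 between these days (adjusted p = 1.3e-05).

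**Figure D3:**
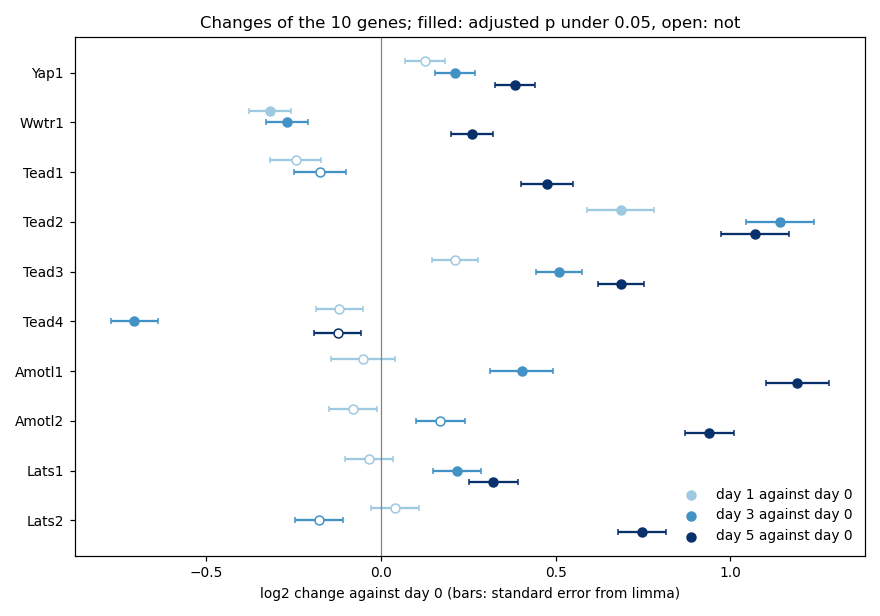
Log2 change against day 0 (horizontal axis) of the 10 genes (vertical axis), with a point for each of days 1, 3 and 5, filled where the adjusted p was under 0.05, and bars of 1 standard error. At day 5 Amotl1 (1.19), Tead2 (1.07) and Amotl2 (0.94) lie farthest to the right and Tead4 (-0.12) is the only point left of 0.

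The genes that act before Lats1 and Lats2 moved in both directions. Of 24 listed kinases, adaptors, polarity and junction proteins, 23 were measured and Stk3 had no probe set of its own. At day 5, 11 were higher and 2 lower than at day 0, with a median change of 0.20, where 35% of all genes were called, 17.4% higher and 17.6% lower, and their median change was -0.02. The remaining 10 did not pass, among them Stk4, the Mst1 kinase, with 0.00 (adjusted p = 0.989 from limma). The strongest rises by adjusted p were those of Map4k4, a kinase that acts on Lats in parallel to Mst (0.66, SE 0.05, adjusted p = 4.45e-07), Ptpn14, a phosphatase that holds Yap1 in the cytoplasm (0.82, adjusted p = 1.4e-06), Sav1, the scaffold of the Mst kinases (0.48, adjusted p = 9.07e-06), and Taok3, a kinase of the Tao family (0.54, adjusted p = 1.81e-05). Nf2 (merlin), which brings Lats to the membrane, fell by 0.27 (adjusted p = 0.000906), and Fat4, a large cadherin, fell by 0.33 (adjusted p = 0.00888). The signal of Fat4 was low, with means of 6.45 at day 0 and 6.12 at day 5, under the 30th percentile of all genes.

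At day 1, 4 of these genes were higher and 1 lower than at day 0, with 10.9% of all genes called, and at day 3, 7 were higher and 3 lower, with 26.6% of all genes called. Amot, the founder of the angiomotin family, was named after its values were seen. Its log2 signals were 9.21, 9.23 and 9.25 at day 1, against 8.32, 8.41 and 8.18 at day 0, a rise of 0.93 (adjusted p = 1.12e-05 from limma). Amot had risen on the day when Amotl1 and Amotl2 did not pass, and it fell by 0.57 between days 1 and 3 (adjusted p = 0.000291). By day 5 its change against day 0 was 0.27 (adjusted p = 0.0197), although the arrays of these days overlapped. The counts at days 1 and 3 moved by more than 1.5 times when single arrays were left out, and those at day 5 by no more than that.

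**Figure D4:**
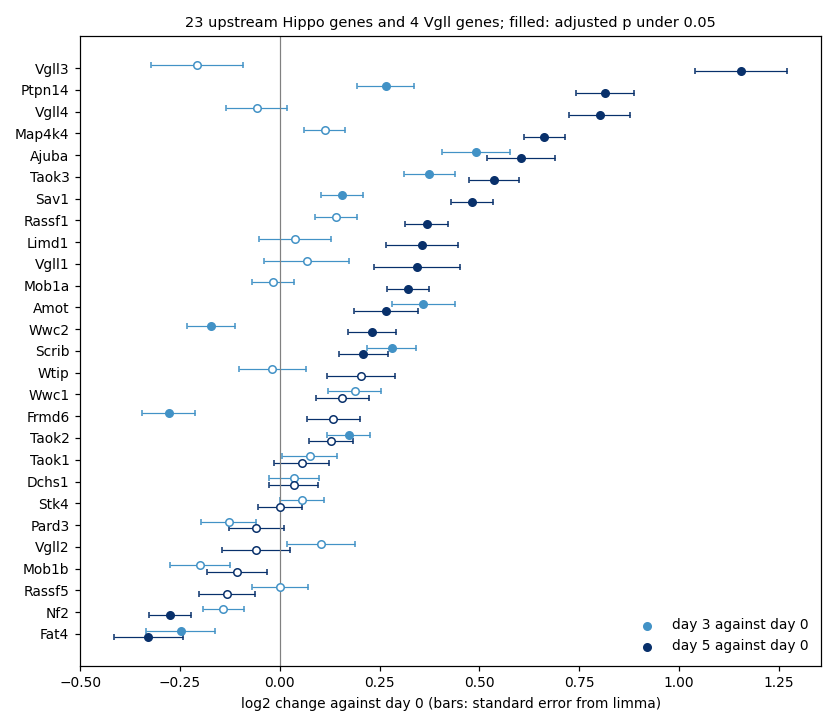
Log2 change against day 0 at days 3 and 5 (horizontal axis) of the upstream Hippo genes and the vestigial-like cofactors (vertical axis), with points filled where the adjusted p was under 0.05 and bars of 1 standard error. Most points at day 5 lie between -0.33 (Fat4) and 0.82 (Ptpn14), with Vgll3 at 1.16.

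The vestigial-like proteins bind Tead factors in place of Yap1. Vgll4, which represses Tead targets, had log2 signals of 8.20, 8.06 and 8.36 at day 5, against 7.43, 7.42 and 7.37 at day 0, and Vgll3 had 8.61, 8.07 and 8.54 at day 5, against 7.34, 7.17 and 7.24 at day 0. In both the groups were far apart. The rises were 0.80 for Vgll4 (SE 0.08, adjusted p = 2.67e-06 from limma) and 1.16 for Vgll3 (SE 0.12, adjusted p = 4.59e-06). Vgll1 rose by 0.34 (adjusted p = 0.023), which did not pass when day 0 replicate 2 (0.21, adjusted p = 0.0902), day 5 replicate 1 (adjusted p = 0.0753) or day 5 replicate 3 (adjusted p = 0.0591) was left out, and Vgll2 did not pass. The signal of Vgll1 was low, with means of 6.09 at day 0 and 6.44 at day 5, under the 30th percentile of all genes. None of the 4 passed at day 3, where 26.6% of all genes were called. At day 5, 3 were higher, Vgll1 included, where 17.4% of all genes were higher.

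Genes known from other cells as targets of Yap1 and Tead factors were mostly higher at day 5. Of 20 listed, 13 were higher and 2 lower at day 5 than at day 0 (17.4% and 17.6% of all genes), with a median change of 0.61, against -0.02 over all genes. Ptpn14 stands both in this list and in that of the upstream genes, and its rise is counted in each. At day 3 the list of targets was mixed, with 8 higher and 7 lower (13.5% and 13.1% of all genes) and a median of -0.06. At day 1, 1 was higher and 1 lower (6.45% and 4.48% of all genes). Between days 3 and 5, 17 rose and none fell (13% and 12.2% of all genes), with a median of 0.90. The mean log2 signal of the list spanned 8.55 to 8.62 over the arrays of day 0, 8.52 to 8.59 at day 1, 8.46 to 8.57 at day 3 and 9.25 to 9.40 at day 5. The list was drawn up with earlier results of these arrays known and gives no independent evidence of its direction.

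Ccn1 (Cyr61), a secreted matricellular protein, had log2 signals of 11.86, 11.80 and 11.86 at day 5, against 10.60, 10.51 and 10.53 at day 0. F3, tissue factor, had 11.43, 11.52 and 11.47 at day 5, against 9.57, 9.75 and 9.62 at day 0. Neither gene's arrays overlapped, and the rises were 1.30 for Ccn1 (SE 0.07, adjusted p = 1.64e-08 from limma) and 1.82 for F3 (SE 0.08, adjusted p = 4.97e-09). Gadd45b, a stress-response protein, rose by 1.71 (adjusted p = 4.77e-09) and Crim1, a transmembrane protein that binds Bmp ligands, by 1.86 (adjusted p = 1.68e-08). Ccn2 (Ctgf), named after its values were seen, rose by 0.50 at day 3 (adjusted p = 0.00136) and by 1.71 at day 5 (adjusted p = 2.35e-08). The widest change of the list was that of Igfbp3, which binds insulin-like growth factors and was likewise named after its values were seen, with 2.60 at day 5 (adjusted p = 2.35e-08).

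The 2 genes that were lower at day 5 were Foxf2, a forkhead factor of mesenchyme (-0.77, SE 0.10, adjusted p = 5.96e-05 from limma), and Rbms3, an RNA-binding protein (-0.45, adjusted p = 0.000389). The signal of Rbms3 was low, with means of 6.48 at day 0 and 6.03 at day 5, under the 30th percentile of all genes. At day 3, Axl, a receptor kinase, and Ccdc80, a matrix protein, both chosen after their values were seen, had fallen by 0.94 (adjusted p = 7.63e-06) and 1.41 (adjusted p = 3.87e-07). At day 5 their changes against day 0 were 0.00 and -0.14 and did not pass.

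**Figure D5:**
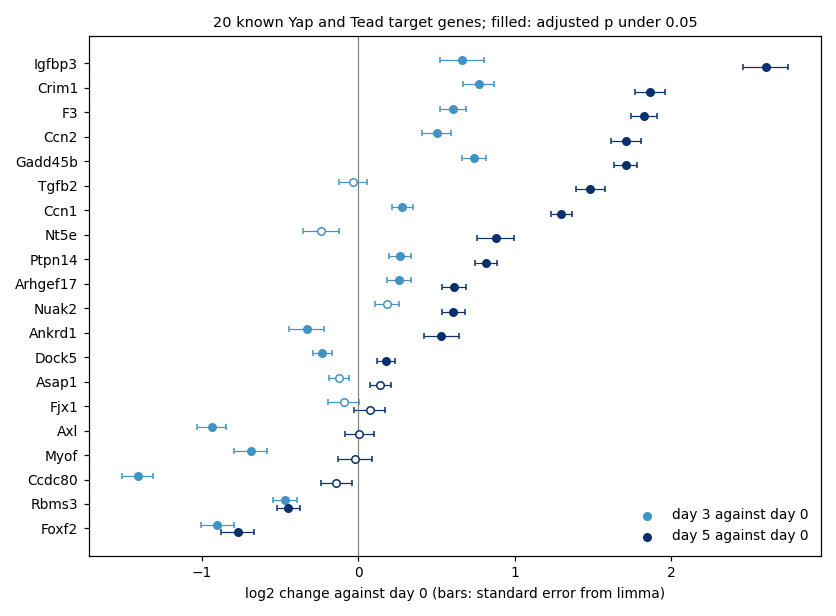
Log2 change against day 0 at days 3 and 5 (horizontal axis) of the 20 listed Yap1 and Tead target genes (vertical axis), with points filled where the adjusted p was under 0.05 and bars of 1 standard error. At day 3 the points lie on both sides of 0, from -1.41 (Ccdc80) to 0.77 (Crim1), and at day 5 most lie to the right, up to 2.60 (Igfbp3).

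Markers of other cells were read beside these genes. Of 9 trophectoderm markers, 4 were higher and none lower at day 5 than at day 0 (Krt18 by 2.50, Krt7 by 1.79, Krt8 by 1.69 and Gata3 by 0.74), beside 17.4% of all genes higher and 17.6% lower, and their mean log2 signal spanned 8.73 to 8.88 at day 5 and 7.93 to 8.04 at day 0. Cdx2 and Elf5, which define trophectoderm, changed by -0.02 and 0.08 and did not pass (adjusted p = 0.835 and 0.558 from limma). Between days 3 and 5, 6 of the 9 rose and none fell, where 13% of all genes were called higher and 12.2% lower. The 3 keratins also mark other simple epithelia, and the part of such cells in the members' rise was not tested. In bulk cultures, more cells of a kind and more RNA per cell cannot be told apart.

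Of 12 fibroblast markers, none was higher and 2 were lower at day 5 than at day 0 (17.4% of all genes were higher and 17.6% lower), and their mean log2 signal spanned 7.28 to 7.40 at day 5 and 7.47 to 7.59 at day 0. At day 3, 7 were lower and 1 higher, where 13.1% of all genes were lower and 13.5% higher. Between days 3 and 5, where 13% of all genes rose and 12.2% fell, 5 of the markers rose and 2 fell. Among the 5, Col1a2 rose by 1.24 and Col1a1 by 0.96. Axl and Ccdc80 had their lowest values on the same day as these collagens, a co-occurrence whose source was not tested. Of 10 markers of extraembryonic endoderm, 5 were higher and 3 lower at day 5, and the list's mean spanned 9.34 to 9.58 at day 5 and 9.40 to 9.45 at day 0. This mean hides moves in opposite directions, as in 2 markers named after their values were seen. Cubn had log2 signals of 10.72, 11.27 and 11.06 at day 5, against 12.39, 12.32 and 12.34 at day 0. Sox17 had 9.52, 9.78 and 9.71 at day 5, against 8.91, 8.89 and 8.82 at day 0. Of 8 ES cell markers, 7 were lower at day 5, with Sall4 the exception, and their mean spanned 10.79 to 10.87 at day 5 and 11.67 to 11.73 at day 0. The 8 include Esrrb, the depleted gene, whose change of -3.40 follows from the design and weighs on this mean. The changes of the other lower markers lay between -0.25 (Nanog) and -1.60 (Zfp42).

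The genes whose course over the 3 changes against day 0 came nearest to those of the 3 most variable members were found among all 19938. For Amotl1 these were Gucy1a2, a subunit of soluble guanylate cyclase, Gria3, a glutamate receptor subunit, and Slc39a8, a zinc transporter, whose largest differences from Amotl1 among the 3 changes were 0.035, 0.046 and 0.055 on the log2 scale. For Tead2 they were Kif21a, a kinesin, Psme2, a proteasome activator subunit, and Ptpn13, a tyrosine phosphatase, with largest differences of 0.078, 0.084 and 0.092. For Amotl2 they were Slc6a2, the noradrenaline transporter, Pcgf5, a Polycomb protein, and Myadm, a membrane protein, with largest differences of 0.047, 0.066 and 0.071. The likeness covers 4 days of 3 arrays each and was measured on the day means.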

How the data were processed

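Messenger RNA was measured on 12 arrays of the Esrrb_R line, 3 biological replicates at each of days 0, 1, 3 and 5. Background correction, normalization and summary by the Robust Multichip Average were done by the authors in Affymetrix Expression Console (version not given in the sources used here), and the log2 values they deposited, 1 for each probe set of an array, ran from 1.61 to 14.69. The number of arrays limits the precision.

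Of 35557 probe sets, 21789 carried 1 symbol in the platform annotation, 1621 several and 12147 none. Probe sets with 1 symbol were averaged per gene, as in the methods of the study, which gave 19938 genes. A RefSeq table of GRCm38.p6 held the identifiers of 21698 of the 21789 probe sets with 1 symbol and changed 0 symbols. The 1 model of all arrays (lmFit and eBayes of limma 3.58.1, R 4.3.3) had a mean per day, 8 residual and 4.63 prior degrees of freedom. Within-array differences of 9 paralog pairs were added as further features, and Benjamini-Hochberg adjusted p-values, over all genes for a gene and over genes and pairs for a pair, were called under 0.05. The smallest two-sided exact permutation p that a single gene could reach with 3 arrays a group is 0.1. The tests were first tried on simulated data. Python 3.11.15 was used for sequences and plots (matplotlib 3.10.9, pandas 2.3.3, numpy 2.4.6).

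The members and lists were chosen with earlier results of these data known. Apart from genes said to be chosen after their values were seen, the text names the 10 members, Esrrb, up to 4 genes a direction and list with the smallest adjusted p at day 5, the 3 genes most like each of the 3 members with the widest range of day means (by the largest absolute difference among the 3 changes) and single markers that bear on a list. No arrays were identical. Alternatives were a replicate block, leaving out each array, the brightest probe set, every probe set, omission of genes under the 30th percentile of signal, trended robust variance, array weights, a second quantile normalization, median centring, a fit of only the days compared, and the tests named in the study's methods (analysis of variance, and the methods' t-test at day 1).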

Additional observations from a re-analysis of the deposited data

How the results depend on the processing

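The counts of members called at day 3 (7), at day 5 (9) and between days 3 and 5 (7) against the earlier day stayed within 1.5 times of these values under all alternatives run, with ranges of 6 to 9, 9 to 9 and 6 to 8. With single arrays left out, the ranges were 2 to 3 at day 1, 6 to 7 at day 3, 9 to 9 at day 5, 4 to 7 between days 1 and 3, 6 to 8 between days 3 and 5, 6 to 7 for paralog pairs and 10 to 10 for the whole course. The 2 members at day 1 became 4 without genes of low signal, 4 with array weights, 5 by the methods' t-test unadjusted (with 4446 genes in all) and 1 after Benjamini-Hochberg (1020 genes). The 10 members of the whole course became 1, Amotl2, under the methods' analysis of variance with Bonferroni adjustment and a 2-fold minimum, which called 420 genes in all. All genes called at day 1 numbered 2180 and ranged from 1236 (without day 1 replicate 3) to 3021. Replicate numbers did not pair the arrays, since the deviations of 0 of 18 same-number pairs correlated above 0.1 (r between -0.17 and 0.07) and 3 of 12 arrays were closest to their own number. With the replicate number as a block, 3, 6 and 9 members were called at days 1, 3 and 5, 7 between days 1 and 3, 7 between days 3 and 5, and 7 pairs. Under the block Tead3 passed at day 1 (adjusted p = 0.0443) and between days 3 and 5 (0.0474) and Amotl2 minus Amotl1 passed (0.0497), while Lats1 at day 3 (0.0527), Yap1 between days 3 and 5 (0.0577) and Tead1 minus Tead3 (0.0579) did not. Of 1050 member changes recomputed under alternatives, 984 kept direction and side of the threshold, 36 lost a call, 26 gained one and 4 changed sign, none of these called: Lats1 at day 1 without day 0 replicate 1 (0.012, with -0.076 to 0.012 over single arrays left out), Lats2 at day 1 without day 0 replicate 2 (-0.0084, and -0.0084 to 0.089), Amotl1 at day 1 without day 1 replicate 1 (0.00048, and -0.11 to 0.00048), and Tead2 between days 3 and 5 without day 5 replicate 2 (0.014, and -0.12 to 0.014). The cause was not tested. The number of arrays, 3 a day, limits these results.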
